A study of Homo sapiens with 78 samples.

Results

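The comparison of A549 cells exposed for 12 h to interleukin-1β (IL-1β) with cells left unstimulated (NS) for the same 12 h was taken from an RNA sequencing time course. A549, a long-established human line, grew out of a lung carcinoma and is often used as a model of the alveolar type II cell. Both groups were wild type, had been kept overnight in medium free of serum and additives, and differed only in recombinant human IL-1β at 1 ng/ml. Each group held 4 libraries of poly(A) RNA, numbered 1 to 4, which made 8 of the 78 libraries analysed across 5 times. Of 19652 genes listed, the 13327 that reached 1 TPM (a transcript level scaled for transcript length and library size) in at least 3 libraries were compared. The line comes from 1 tumour, so the libraries measure the spread between cultures of this line, and in bulk RNA fewer cells of a kind cannot be told apart from less RNA per cell. Per the labels 4 experiments were run independently, or 3 for the 12 h time, yet both groups held 4 libraries here. The group given IL-1β plus budesonide for 12 h, not compared here, held only libraries 1, 2 and 4. No label ties a library to an experiment.

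IL-1β binds a receptor that recruits the adaptor MYD88 and kinases of the IRAK family, and the signal frees the transcription factor nuclear factor κB (NF-κB) from its cytoplasmic inhibitors. In airway epithelium this raises chemokines that draw in neutrophils and monocytes, together with inhibitors that turn NF-κB down again. Autocrine interferon can follow and drive antiviral genes through the factor complex that binds interferon-stimulated response elements.

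IL-1β raised 486 genes and lowered 410 at 12 h, with the largest rises in CXCL8, CXCL1, PI3 and CCL5 and the largest falls in RAB26, RAP1GAP, KRT4 and MATN2. A call needed an adjusted p of 0.05 or less in limma and a change of at least 1 on the log2(TPM + 0.5) scale, on which every change below is given as IL-1β minus NS. The genes called up were 3.65% and those called down 3.08% of all genes tested. By the adjusted p alone, 2027 genes were higher and 2766 lower with IL-1β. Genes said below not to pass missed the p limit, the limit of change or both. The rises reached further than the falls. Of the genes called up, 140 changed by 2 or more and 80 by 3 or more on that scale (median 1.52, highest 8.39), whereas 15 of the genes called down changed by 2 or more and 0 by 3 or more (median −1.21, lowest −2.59). Over all 13327 genes the median change was −0.05. The 4 IL-1β libraries all lay above the 4 NS libraries for 471 of the genes called up and all below for 380 of those called down. Over all genes tested, with or without a call, the IL-1β libraries all lay above for 13.3% and all below for 17.7%. Low levels matter to these counts, since 99 genes called up and 116 called down had a mean under 2 TPM over the 8 libraries, and 15 genes called up were listed at 0 in every NS library.

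**Figure D1:**
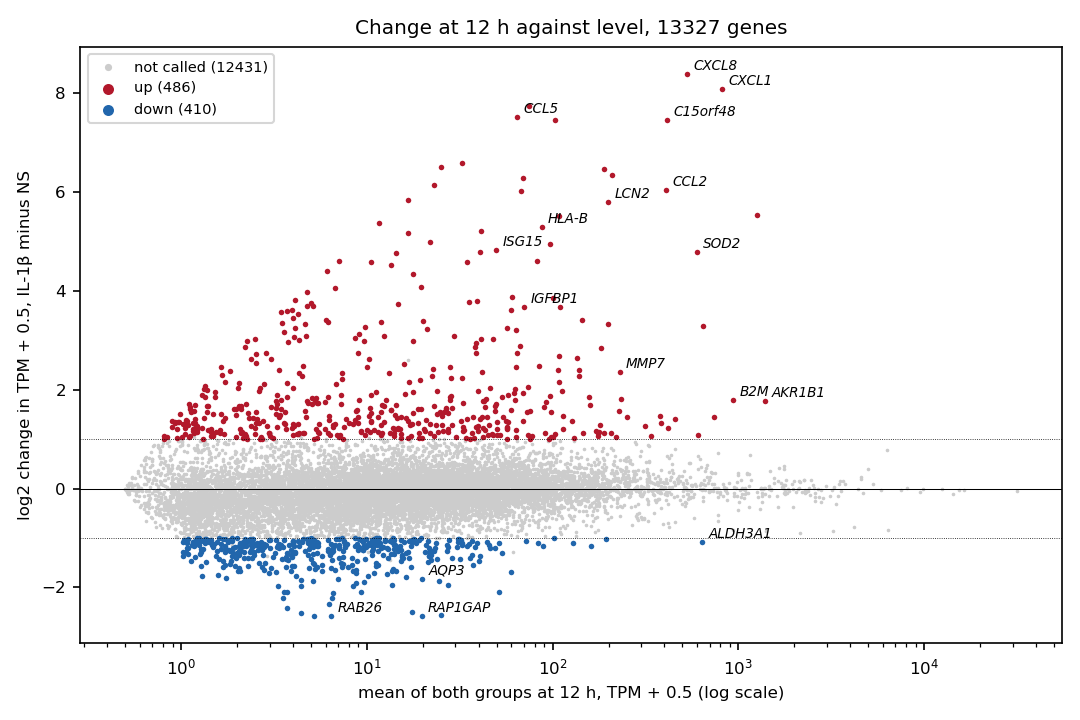
Each point is a gene, with its mean level over the 8 libraries at 12 h in TPM + 0.5 on a log axis against its change, IL-1β minus NS, in log2(TPM + 0.5). Genes called up spread as far as 8.39 and genes called down as far as −2.59, so the rises reach further than the falls.

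IL-1β libraries summed to 851827 to 890649 TPM and NS libraries to 826280 to 866389 TPM (exact permutation test, two-sided p = 0.114). Genes encoded in mitochondrial DNA took 12.7% to 15.1% of the sum with IL-1β and 14.1% to 15.8% in NS (exact p = 0.343). Fewer genes reached 1 TPM with IL-1β, between 11850 and 11973 against 12059 to 12176 (exact p = 0.0286, the smallest that 4 against 4 libraries can give). Of 10 epithelial markers 8 reached 1 TPM in all 8 libraries, all but CLDN3 and CLDN7, and the 10 summed to 5919 to 8738 TPM in NS and 4168 to 5468 TPM with IL-1β. Of 15 immune cell markers 12 stayed under 1 TPM in all 8 libraries, and CD3D, CD3E, MS4A1 and FCGR3A were listed at 0 throughout. The 15 nevertheless summed to 11.4 to 13.4 TPM in NS and 20.7 to 46.5 TPM with IL-1β, of which CD68, CD14 and ITGAM made up 83.2% to 96.3% in each library. The integrin chain ITGAM read 0.256 to 0.932 TPM in NS and 2.18 to 4.85 TPM with IL-1β, and the coreceptor CD14 0.664 to 2.63 TPM and 0.889 to 3.09 TPM. The lysosomal protein CD68 read 7.62 to 10.6 TPM in NS and 15.6 to 41.7 TPM with IL-1β and shares 77.1% of its short sequence words with other genes, so its level is uncertain. It lost its call when IL-1β number 4 was left out (log2 change 0.9988). All 8 endothelial markers stayed under 1 TPM, and the 10 fibroblast markers together gave 29.2 to 38.5 TPM in NS and 13.4 to 15.2 TPM with IL-1β.

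The chemokines that attract neutrophils gave the highest changes of the comparison. All 6 of the list rose, with a median change of 6.41. CXCL8 (interleukin-8, the main neutrophil attractant of airway epithelium) read 2.10, 2.95, 3.01 and 2.28 TPM in the NS libraries 1 to 4 and 789, 855, 1486 and 1108 TPM in the IL-1β libraries 1 to 4. Every IL-1β library stood far above every NS library, and the change was 8.39 ± 0.22 (standard error, SE, as after every log2 change; adjusted p = 1.12e-40). CXCL1, a ligand of the same receptor CXCR2, read 4.85, 6.94, 4.75 and 5.30 TPM in NS and 1304, 1413, 2110.3 and 1684 TPM with IL-1β, a change of 8.08 ± 0.17. The groups lay far apart here as well, with IL-1β number 3 the highest. CXCL2 rose from 3.42 to 3.90 TPM to 306 to 496 TPM (change 6.47 ± 0.17) and CXCL3 from 3.93 to 4.83 TPM to 329 to 535 TPM (change 6.34 ± 0.17). CXCL1, CXCL2 and CXCL3 are near copies of each other: 13.7%, 23.5% and 9.23% of their sequence words are shared with other genes, so the split of reads among them is uncertain.

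These genes are neighbours. On chromosome 4 (GRCh38.p14, chr4:73740569-74099195) the annotation places CXCL8, CXCL6, PF4V1, CXCL1, PF4, PPBP, CXCL5, CXCL3 and CXCL2 in 1 stretch, and all 8 of them that were tested were called up. PF4V1 did not reach the minimum level. CXCL5 changed by 5.54 and CXCL6 by 4.41. PF4 and PPBP, chemokines best known from platelets, changed by 1.15 and 1.86, the least of the stretch. These 4 genes were named for their place in the stretch with their values known.

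Promoter sequences are shown for 5 genes that rose and hold 1 word of the NF-κB site before their start. They were picked for the word, and CXCL8, CCL20, CLEC4E, UBD, SERPINA3, IFI27, BIRC3 and ZC3H12A, which rose as well, had no match there. The word searched was GGGANNTTCC, the core of the NF-κB site, on both strands, in RefSeq windows of 300 bases (250 before and 50 after the start of a gene, GRCh38.p14). The letters below are the part before the start, read on the strand of the gene, and capitals mark the match. CXCL1 (chr4:73869290-73869348, plus strand), CXCL2 (chr4:74099239-74099297, minus strand) and CXCL3 (chr4:74038734-74038792, minus strand) carry it at almost the same distance before the start, 69 bases for CXCL1 and CXCL3 and 68 for CXCL2. TNFAIP3 (chr6:137867168-137867225, plus strand) and NFKBIZ (chr3:101827743-101827800, plus strand), described further on, carry it 58 and 214 bases before the start.
CXCL1: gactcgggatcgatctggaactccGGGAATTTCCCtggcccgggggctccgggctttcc
CXCL2: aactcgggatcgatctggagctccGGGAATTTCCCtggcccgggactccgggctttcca
CXCL3: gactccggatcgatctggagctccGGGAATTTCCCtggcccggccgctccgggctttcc
TNFAIP3: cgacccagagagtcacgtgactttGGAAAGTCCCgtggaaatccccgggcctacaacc
NFKBIZ: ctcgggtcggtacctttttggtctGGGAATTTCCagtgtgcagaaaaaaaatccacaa

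The 3 chemokine stretches show an 11-letter stretch in which the word is found on both strands, and differ at few letters around it. Of the 6 neutrophil chemokines 5 held the word in their window (83.3%), all but CXCL8. Among the 363 genes called up that had a window, 26 held it (7.16%), against 2 of 301 called down (0.664%), 147 of 9912 not called (1.48%) and 1.63% of all 27305 windows. A broader NF-κB consensus, which overlaps this word, was found in 17.1% of genes called up, 6.31% of those called down, 6.31% of those not called and 5.72% of all windows. A match describes these letters and is no evidence of binding.

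**Figure D2:**
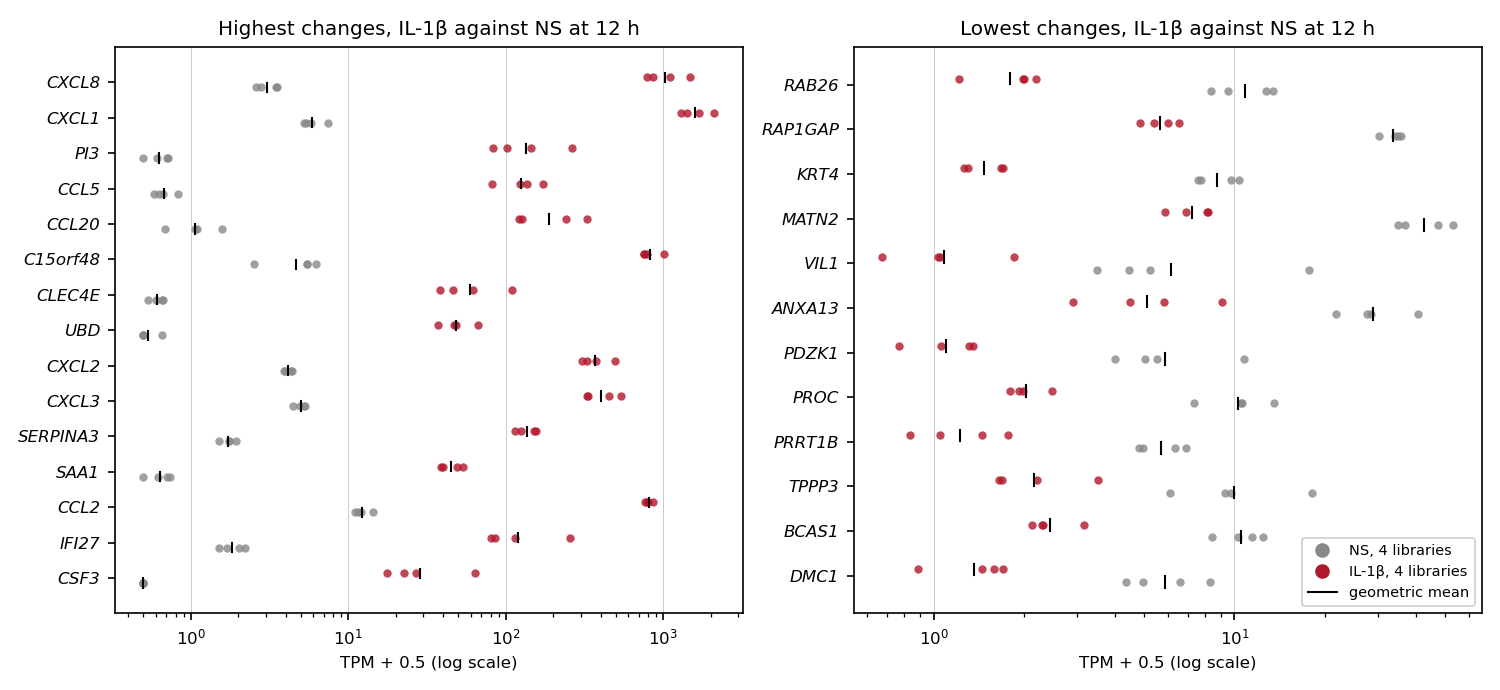
TPM + 0.5 on a log axis in each of the 4 NS libraries (grey) and 4 IL-1β libraries (red) at 12 h for the 15 highest and 12 lowest named changes, with geometric means as bars. Genes were chosen among those whose groups do not overlap, as CXCL8 with 2.10 to 3.01 TPM in NS and 789 to 1486 TPM with IL-1β.

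Chemokines for monocytes and lymphocytes rose in 6 of 7 members tested, but over a wide range. CCL5, which attracts T cells and eosinophils, read 0.131, 0.328, 0.168 and 0.0855 TPM in NS and 135, 123, 81.2 and 172 TPM with IL-1β, a change of 7.53 ± 0.28. The NS libraries were all close to 0 and all IL-1β libraries far above, but 24.2% of the sequence words of CCL5 are shared with other genes and its level is uncertain. CCL20, the ligand of CCR6 on dendritic cells and Th17 cells, went from 0.183 to 1.08 TPM to 121 to 328 TPM (change 7.47 ± 0.33) and CCL2, the main monocyte attractant, from 10.5 to 13.9 TPM to 769 to 864 TPM (change 6.05 ± 0.16). The interferon-induced ligand of CXCR3, CXCL10, was listed at 0 in all NS libraries and read 0.520, 0.313, 0.453 and 3.19 TPM with IL-1β. IL-1β number 4 stood several-fold above the other 3 libraries, and CXCL10 lost its call when IL-1β number 4 was left out (log2 change 0.89). CXCL16 did not pass the test (change −0.30).

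Among cytokines 11 of 19 rose and 0 fell, with a median change of 2.23 over the list. CSF3 (granulocyte colony-stimulating factor) was listed at 0 in every NS library and read 17.0, 21.9, 63.6 and 26.3 TPM with IL-1β. IL6 was listed at 0 in 3 NS libraries and at 0.111 TPM in NS number 3, against 4.33, 6.60, 13.3 and 9.74 TPM with IL-1β (change 3.99 ± 0.25). IL32, a proinflammatory cytokine of epithelium, rose from 3.99 to 8.43 TPM to 157 to 221 TPM (change 4.95 ± 0.25), and EBI3, a chain of IL-27 and IL-35, from 0.313 to 0.642 TPM to 24.1 to 34.0 TPM (change 4.78 ± 0.24). The mRNA of the stimulus itself, IL1B, was among the genes called up, with 0.0288 to 0.0982 TPM in NS and 4.11 to 10.4 TPM with IL-1β (change 3.62 ± 0.22, named with its value known). It can be read as mRNA of the cells because the agent added was the protein. IL18, which is processed by the same caspase as IL-1β, did not pass (change 0.07).

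The receptor pathway that receives IL-1β changed little, whereas some NF-κB genes and some genes listed as feedback inhibitors rose. In the receptor list 1 of 15 genes passed the test, the kinase IRAK2, which read 4.42, 4.93, 5.33 and 4.18 TPM in NS and 66.6, 72.1, 84.8 and 65.8 TPM with IL-1β (change 3.80 ± 0.10). The groups did not overlap. The receptor chain IL1R1 changed by −0.21 and the adaptor MYD88 by 0.27, and neither passed. Of 11 NF-κB subunits and kinases 5 rose. RELB, the partner of the noncanonical pathway, read 3.78 to 7.31 TPM in NS and 46.6 to 60.3 TPM with IL-1β (change 3.09 ± 0.15) and its precursor partner NFKB2 12.2 to 16.9 TPM and 106 to 122 TPM (change 2.88 ± 0.15). The kinases IKBKE and MAP3K8 rose by 2.33 ± 0.13 and 1.79 ± 0.11. RELA, the main activating subunit, did not reach the limit of change (change 0.50).

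In the list of NF-κB feedback inhibitors 9 of 18 members rose and 0 fell (median 1.17). The list also holds BIRC3, described below, for which the study describes roles in signaling to NF-κB. TNFAIP3 (A20, a ubiquitin-editing enzyme) read 2.31, 0.873, 1.73 and 1.64 TPM in NS and 66.9, 52.1, 102 and 97.0 TPM with IL-1β, a change of 5.22 ± 0.23. All IL-1β libraries were high and the groups did not overlap. NFKBIZ, the atypical nuclear IκB protein, rose from 2.93 to 4.33 TPM to 28.4 to 51.4 TPM (change 3.23 ± 0.24) and the RNase regnase-1 gene ZC3H12A from 8.35 to 14.1 TPM to 86.9 to 120.2 TPM (change 3.24 ± 0.18). The promoter word was present for TNFAIP3 and NFKBIZ, shown above, and in 3 of 17 windows of the list (17.6%).

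BIRC3, the inhibitor of apoptosis protein that the study was built around, rose while its neighbour BIRC2 did not reach the limit. BIRC3 read 10.0, 7.90, 7.17 and 9.40 TPM in NS and 104, 95.2, 116 and 126 TPM with IL-1β, a change of 3.61 ± 0.17 (adjusted p = 1.16e-27). Each IL-1β library lay above each NS library. BIRC2, which encodes the related protein and starts downstream on the same chromosome 11 (BIRC3 chr11:102317484-102339403, BIRC2 chr11:102347214-102378670, GRCh38.p14), read 32.0, 25.4, 21.9 and 23.6 TPM in NS and 43.4, 42.2, 44.9 and 48.4 TPM with IL-1β. Its change was 0.80 ± 0.13 (adjusted p = 7.98e-07), past the p limit but short of 1. The BIRC3 change was 2.92 and 4.82 in the first measured hours (1 h and 2 h), 3.94 by 6 h and 3.58 after 24 h. No NF-κB word lay before the start of BIRC3 in its window, which says only that these letters are not there. By another way of scoring motifs, the study reported RELA motifs just upstream of this start. It also reported that IL-1β brought RELA to that region. In its reporter assays the region responded to IL-1β, and an overexpressed inhibitor of NF-κB largely prevented this. For BIRC2 it reported RELA at a region before the start as well. It listed BIRC2 among the genes that IL-1β upregulated at some measured time.

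Interferon-stimulated antiviral genes gave more calls than any other list drawn up by function: 36 of 41 were called up and 0 down, with a median change of 1.96. IFI27, a mitochondrial protein strongly induced by type I interferon, read 1.18, 1.53, 1.00 and 1.71 TPM in NS and 80.5, 84.5, 114 and 254 TPM with IL-1β, a change of 6.02 ± 0.37. The IL-1β libraries all lay above NS, and number 4 was the highest. The ubiquitin-like protein ISG15 read 2.56, 2.76, 2.58 and 2.08 TPM in NS and 50.9, 56.6, 95.1 and 181 TPM with IL-1β (change 4.82 ± 0.26). IL-1β number 4 again read highest. IFI6 changed by 4.61 ± 0.22 (19.3% of words shared) and the dynamin-like antiviral GTPase MX1 by 4.08 ± 0.28, from 1.06 to 1.65 TPM to 17.3 to 78.5 TPM. The 5 members without a call were IFITM1 (change 2.60, with a wide spread), TRIM21 (0.78), IFIT5 (0.61), USP18 (0.48) and IFITM2 (0.24), given with their values known. The response element TTTCNNTTTC, searched on both strands, is shown for the 3 highest of these genes that had a window with it, IFI27 (chr14:94110604-94110674, plus strand), ISG15 (chr1:1013360-1013423, plus strand) and IFI6 (chr1:27672252-27672372, minus strand). Capitals mark the matches, which overlap in ISG15.
IFI27: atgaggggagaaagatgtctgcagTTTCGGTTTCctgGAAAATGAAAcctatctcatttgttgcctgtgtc
ISG15: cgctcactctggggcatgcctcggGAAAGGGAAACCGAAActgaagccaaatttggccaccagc
IFI6: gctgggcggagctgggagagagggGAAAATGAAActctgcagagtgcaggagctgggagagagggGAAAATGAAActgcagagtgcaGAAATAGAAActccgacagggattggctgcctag

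IFI27 and ISG15 each show 2 matches and IFI6 shows 3. The element was found in 23 of 33 windows of the list (69.7%), and in 12.9% of windows of genes called up, 1.66% of those called down, 2.55% of those not called and 3.65% of all windows. MX1 held it in its window but not before the start.

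IL-1β number 4 stood apart from the other IL-1β libraries for these genes. The mean change over the interferon-stimulated list was 1.80, 1.52 and 2.18 in IL-1β libraries 1 to 3 and 3.10 in number 4, each against the mean of NS. Libraries with this number were also the highest of their group at 6 h (2.65, 2.72, 3.13 and 3.39 for numbers 1 to 4) and at 24 h (1.15, 0.90, 1.19 and 2.07). Without IL-1β number 4, 34 of 41 genes were called up instead of 36, and the median change was 1.62. The transcription factor IRF7, which amplifies interferon, read 2.20, 1.65, 2.30 and 1.59 TPM in NS and 13.9, 15.0, 18.9 and 39.7 TPM with IL-1β (change 3.08 ± 0.23), and IRF1 changed by 2.47 ± 0.13. Of 15 interferon signaling genes 6 rose and 0 fell. The receptor chain IFNGR1 rose by 2.48 ± 0.12 and IRF9, part of the complex that binds the response element, by 1.98 ± 0.15 (26.6% of words shared). Guanylate-binding proteins, which act against intracellular pathogens, rose in 4 of 5 cases. GBP1 read 0.248, 0.136, 0.193 and 0.602 TPM in NS and 6.23, 5.32, 5.88 and 14.8 TPM with IL-1β (change 3.34 ± 0.30), again with number 4 highest. GBP2 changed by 2.62 ± 0.19 and GBP3 by 2.47 ± 0.27. GBP1 to GBP4 share 10.6% to 14.9% of their words with other genes. GBP4 lost its call when IL-1β number 4 was left out (log2 change 0.81), which left 3 of 5. Whether the high level in library number 4 plays a part in the list's change was not tested beyond these values.

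**Figure D3:**
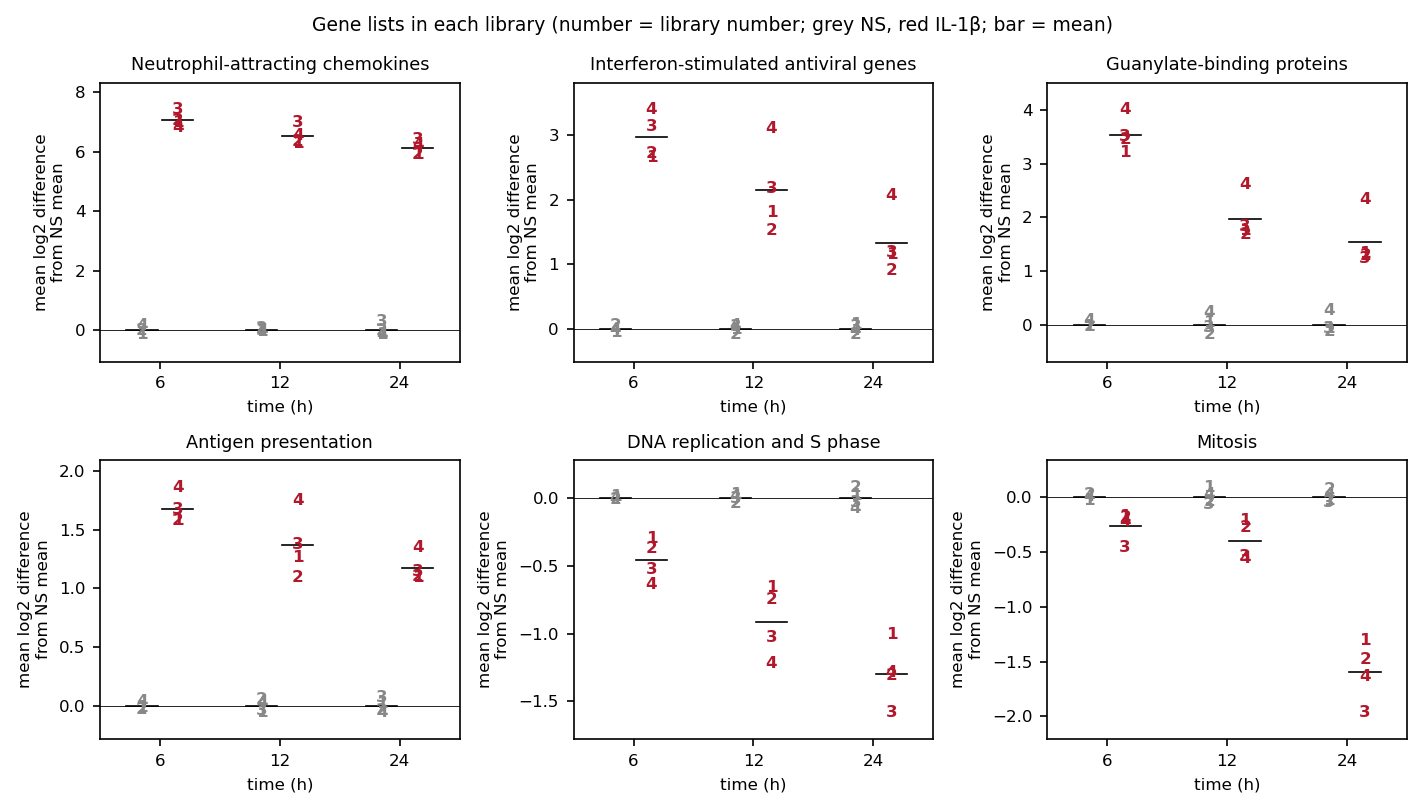
Mean change over 6 gene lists in each library at 6, 12 and 24 h, in log2(TPM + 0.5) against the mean of the NS libraries of the same time, drawn as the library number (grey NS, red IL-1β, bar the group mean). For the interferon-stimulated list IL-1β number 4 is the highest at each of the 3 times, at 3.10 at 12 h against 1.52 to 2.18 for the others.

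Antigen presentation genes rose in 15 of 20 cases and fell in 2 (median 1.39). HLA-B, a heavy chain of MHC class I, read 4.08, 4.41, 2.88 and 3.20 TPM in NS and 158, 125, 121 and 278 TPM with IL-1β, a change of 5.30 ± 0.36. The groups did not overlap, although 38.1% of the sequence words of HLA-B are shared with other genes and its level is uncertain. The peptide transporter TAP2 changed by 2.35 ± 0.20 (19.2% of words shared), the immunoproteasome subunit PSMB9 by 2.43 ± 0.26 and HLA-F by 2.46 ± 0.55. B2M, the light chain of class I, rose from 359 to 456 TPM to 1275 to 1873 TPM (change 1.79 ± 0.10) and was the 1 of 14 common reference genes that was called. Both genes that fell encode HLA-DM, which loads peptides onto class II, HLA-DMA (−1.06) and HLA-DMB (−1.87), named with their values known. HLA-DMA lost its call when NS number 3 or IL-1β number 2 was left out (log2 change −0.96 to −0.93), and 13 genes of the list rose without IL-1β number 4.

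Acute phase and complement genes rose in 11 of 20 cases and fell in 0. SERPINA3, an inhibitor of chymotrypsin-like proteases, read 1.25, 1.42, 1.26 and 1.02 TPM in NS and 115, 124, 151 and 154 TPM with IL-1β (change 6.29 ± 0.22). Every IL-1β library lay far above NS. Serum amyloid SAA1 rose from 0 to 0.232 TPM to 38.3 to 52.8 TPM (change 6.15 ± 0.29), lipocalin LCN2, which binds bacterial siderophores, from 5.31 to 7.96 TPM to 243 to 515 TPM (change 5.80 ± 0.27), and complement factor CFB from 2.96 to 5.44 TPM to 169 to 260.0 TPM (change 5.52 ± 0.19). The share of words held in common with other genes was 30.3% for SERPINA3, 40.3% for SAA1 and 38.8% for CFB, so these levels are uncertain.

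Secreted antiproteases and antimicrobials rose in 6 of 16 cases. PI3 (elafin, which inhibits neutrophil elastase) read 0.106, 0.206, 0 and 0.219 TPM in NS and 83.0, 101, 144 and 263 TPM with IL-1β, a change of 7.74 ± 0.43. The groups lay far apart. The other elastase inhibitor, SLPI, which was already abundant, went from 17.1 to 45.1 TPM to 64.2 to 148 TPM (change 1.93 ± 0.43). The trefoil peptide TFF1 changed by 3.79 ± 0.36 and the calcium-binding antimicrobial S100A9 by 2.61 ± 0.57. MUC5AC, the mucin of airway goblet cells, did not pass (change 0.20).

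Prostanoid synthesis and receptor genes rose in 4 of 15 cases and fell in 0 (median −0.02). PTGS2 (cyclooxygenase-2) read 30.2, 22.5, 48.8 and 33.5 TPM in NS and 287, 172, 555 and 436 TPM with IL-1β, a change of 3.33 ± 0.31. PTGES, the inducible terminal synthase, changed by 1.88 ± 0.18, the phospholipase PLA2G4C by 1.80 ± 0.24 and the aldo-keto reductase AKR1B1 by 1.77 ± 0.09 (13.9% of words shared). In the superoxide handling list 3 of 12 rose, with a median of −0.08. C15orf48, which encodes a subunit that replaces NDUFA4 in cytochrome oxidase, read 4.94, 4.96, 2.03 and 5.70 TPM in NS and 748, 1009, 786 and 756 TPM with IL-1β (change 7.46 ± 0.27). Mitochondrial superoxide dismutase SOD2 read 29.3 to 46.4 TPM in NS and 792 to 1498 TPM with IL-1β (change 4.78 ± 0.21), and 17.4% of the words of C15orf48 and 18.4% of those of SOD2 were shared with other genes. Cytosolic SOD1 changed by −0.04 and NDUFA4 by −0.12. NRF2 target genes, which defend against oxidants, rose in 0 of 17 cases and fell in 2, the aldehyde dehydrogenase ALDH3A1 (−1.09 ± 0.13) and HMOX1 (−1.01 ± 0.14). HMOX1 lay just past the limit and lost its call when NS number 1, 2 or 4 or IL-1β number 1, 3 or 4 was left out (log2 change −0.9958 to −0.92).

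Surface molecules that hold leukocytes and hide cells from them rose in 6 of 18 cases. ICAM1, the ligand of leukocyte integrins, read 0.490, 0.571, 0.392 and 0.131 TPM in NS and 30.5, 32.4, 42.5 and 22.7 TPM with IL-1β, a change of 5.17 ± 0.26. CD274 (PD-L1) changed by 1.61 ± 0.29, CD47, the signal against phagocytosis, by 1.65 ± 0.10 and the collagen receptor chain ITGA2 by 2.19 ± 0.23. VCAM1, the ligand typical of activated endothelium, did not pass (change 0.36). Matrix proteases rose in 7 of 17 cases and fell in 0. MMP10 read 0.224, 0.145, 0.227 and 0.360 TPM in NS and 8.54, 11.1, 11.0 and 18.4 TPM with IL-1β (change 4.06 ± 0.22), MMP1 (interstitial collagenase) changed by 3.03 ± 0.16, MMP7 (matrilysin) by 2.36 ± 0.18 and the urokinase receptor PLAUR by 1.78 ± 0.14.

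Matrix and basement membrane genes changed in both directions, 6 up and 4 down of 28. The laminin chain LAMB3 rose from 6.65 to 14.6 TPM to 52.4 to 75.6 TPM (change 2.86 ± 0.33). Tenascin TNC rose from 0.210 to 0.614 TPM to 5.32 to 8.38 TPM (change 3.07 ± 0.31) and the basement membrane collagen COL4A3 changed by −1.55 ± 0.47. Without IL-1β number 3, 2 genes of this list fell instead of 4. Of 6 fibroblast markers tested 3 fell, 0 rose and 3 were not called. ACTA2 changed by −1.54 ± 0.14, COL3A1 by −1.33 ± 0.29 and THY1 by −1.10 ± 0.35. THY1 lost its call when NS number 2 or 3 or IL-1β number 4 was left out (log2 change −0.98 to −0.89). The part of any such cells in these results was not tested.

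Genes of apoptosis rose on both sides of the balance. In the BCL2 family 4 of 14 rose and 0 fell: the survival proteins BCL2A1 (4.35 ± 0.20) and MCL1 (1.08 ± 0.10) and the proapoptotic BIK (1.62 ± 0.20) and BID (1.57 ± 0.11). BCL2A1 read 0.730, 1.15, 1.24 and 1.48 TPM in NS and 26.5, 37.4, 39.7 and 29.2 TPM with IL-1β, with no overlap (10.6% of words shared). Caspases and pyroptosis genes rose in 4 of 14 cases, CASP1 (1.67 ± 0.35), which matures IL-1β, CASP4 (1.18 ± 0.12), CASP10 (1.15 ± 0.19) and the caspase-8 inhibitor CFLAR (1.37 ± 0.11, 13.4% of words shared). TNF receptor family genes rose in 4 of 18 cases, led by the costimulatory receptor TNFRSF9 (3.69 ± 0.20) and followed by CD40 (1.18 ± 0.12) and the TRAIL receptors TNFRSF10A (1.17 ± 0.19) and TNFRSF10B (1.12 ± 0.12). Among pattern recognition genes 3 of 13 rose. The lectin CLEC4E (Mincle) read 0.0366, 0.159, 0.165 and 0.105 TPM in NS and 37.8, 45.9, 61.0 and 109 TPM with IL-1β (change 6.58 ± 0.31), and the kinase RIPK2 changed by 1.45 ± 0.09. The RNA sensor TLR3 changed by 1.15 ± 0.25 and lost its call when IL-1β number 4 was left out (log2 change 0.82).

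Signaling genes downstream of cytokines and stress rose in some members of each list. OSMR, the receptor of oncostatin M, read 28.3, 24.0, 31.7 and 26.2 TPM in NS and 108, 89.7, 150.1 and 124 TPM with IL-1β (change 2.06 ± 0.15), and SOCS3, a feedback inhibitor of IL-6 signaling, changed by 1.58 ± 0.14. Of 16 genes in that list 2 rose and 1 fell. The number that rose was 4 without IL-1β number 1 or NS number 4. IL11RA, the gene that fell (change −1.005, 31.8% of words shared), lost its call when NS number 3 or 4 or IL-1β number 1 or 3 was left out (log2 change −0.9978 to −0.88). AP-1 and immediate early genes, which peak early after a stimulus, were called up in 5 of 28 cases, and in 19 at 1 h and 17 at 2 h, when 1.02% and 2.82% of all genes were called up. IER3 read 40.3 to 47.7 TPM in NS and 198 to 256 TPM with IL-1β (change 2.41 ± 0.11), and FOS and EGR1, classical immediate early genes, changed by −0.87 and −0.10 and did not pass. CEBPD (1.41 ± 0.17) and CEBPB (1.21 ± 0.12), factors of the acute phase, and MAFF (1.70 ± 0.11) also rose. MAPK phosphatases and mRNA decay factors rose in 5 of 15 cases, with DUSP16 (1.72 ± 0.38), DUSP10 (1.29 ± 0.15) and DUSP5 (1.21 ± 0.15) the highest. ZFP36L1 (1.05 ± 0.12) lay at the limit and lost its call when NS number 4 was left out (log2 change 0.9986).

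Enzymes of tryptophan and arginine use rose in 6 of 12 cases. IDO1, the first step of kynurenine synthesis, read 0.0238, 0.140, 0.170 and 0.0981 TPM in NS and 5.29, 5.87, 4.16 and 8.08 TPM with IL-1β (change 3.36 ± 0.17). The next enzymes tested on that route, KMO and KYNU, changed by 1.61 and 1.40. ASS1, which makes argininosuccinate, rose from 13.1 to 18.3 TPM to 152 to 289 TPM (change 3.68 ± 0.18, 18.8% of words shared) and GCH1, the start of tetrahydrobiopterin synthesis, by 1.48 ± 0.24. In the glucocorticoid list HSD11B1, which regenerates active cortisol inside cells, read 0, 0, 0 and 0.0675 TPM in NS and 10.2, 7.47, 12.3 and 22.3 TPM with IL-1β, a change of 4.61 ± 0.33. The receptor itself, NR3C1, changed by −0.32 and did not pass, and FKBP5, a chaperone induced by the receptor, changed by −1.12 ± 0.10. UBD, a ubiquitin-like modifier also called FAT10, read 0.000193, 0.154, 0 and 0 TPM in NS and 47.5, 46.3, 36.8 and 65.8 TPM with IL-1β (change 6.50 ± 0.21), but 80.1% of its words are shared with other genes and its level is uncertain.

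The 12 lowest changes lay between −2.59 and −2.10, in genes of several functions. RAB26, a GTPase of secretory vesicles, read 9.05, 12.2, 12.9 and 7.87 TPM in NS and 1.69, 1.50, 1.48 and 0.716 TPM with IL-1β, a change of −2.59 ± 0.26 (adjusted p = 1.49e-12). All IL-1β libraries were below all NS libraries. RAP1GAP, which switches off the GTPase RAP1, fell from 29.8 to 35.4 TPM to 4.36 to 6.03 TPM (change −2.58 ± 0.12) and KRT4, a keratin of stratified mucosa, from 7.04 to 9.85 TPM to 0.767 to 1.20 TPM (change −2.57 ± 0.19). MATN2, a matrix adaptor protein, fell from 34.5 to 52.9 TPM to 5.37 to 7.70 TPM (change −2.56 ± 0.14). VIL1 (villin, of the microvillus core) read 3.96, 3.00, 4.74 and 17.2 TPM in NS and 0.535, 0.177, 0.552 and 1.36 TPM with IL-1β (change −2.51 ± 0.55). NS number 4 was far above the other 3 NS libraries, and the groups still did not overlap. The annexin ANXA13 changed by −2.49 ± 0.29 and PDZK1, a scaffold of apical transporters, by −2.42 ± 0.43 (61.3% of words shared). PROC, the zymogen of the anticoagulant protein C, changed by −2.34 ± 0.23, and 2 of 22 coagulation genes fell and 2 rose, among them coagulation factor F7 (−1.38 ± 0.25) and tissue factor F3 (1.32 ± 0.23). PRRT1B (−2.22 ± 0.18), TPPP3 (−2.21 ± 0.35), BCAS1 (−2.11 ± 0.13) and DMC1 (−2.10 ± 0.27) completed the 12 lowest.

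Genes of cell junction and growth factor lists were called in both directions, and epithelial markers only down. Of all genes tested 3.65% were called up and 3.08% down. Of 10 epithelial markers 2 fell (median −0.85, against −0.05 over all genes), and 0 fell without IL-1β number 1 or number 3. Of 33 junction genes 3 rose and 3 fell. CLDN1, a tight junction protein, changed by 1.44 ± 0.12 and the repressor ZEB2 by 1.31 ± 0.26. CDH1 (E-cadherin) read 34.6, 24.1, 47.5 and 57.9 TPM in NS and 16.7, 10.8, 15.8 and 37.4 TPM with IL-1β (change −1.08 ± 0.41), with overlapping groups, and lost its call when NS number 3 or 4 or IL-1β number 1, 2 or 3 was left out (log2 change −1.05 to −0.84). CDH17 lost its call when NS number 4 or IL-1β number 2 was left out (log2 change −1.14 to −1.08) and CLDN3 when NS number 1 or 2 or IL-1β number 1 or 3 was left out (log2 change −0.99 to −0.92). Among keratins KRT6A and KRT6B, keratins of stressed epithelium that share 44.1% and 57.8% of their words with other genes, changed by 2.33 ± 0.92 and 1.35 ± 0.32. KRT6A read 2.33, 3.94, 1.36 and 20.6 TPM with IL-1β, with number 4 far above the rest, and lost its call when NS number 1 or 3 or IL-1β number 2 or 4 was left out (log2 change 1.61 to 2.36). Of the EGF receptor list the ligands EREG (2.28 ± 0.21) and AREG (1.19 ± 0.15) rose and the receptors ERBB2 (−1.10 ± 0.18) and ERBB3 (−1.32 ± 0.50) fell. ERBB2 lost its call when IL-1β number 2 was left out (log2 change −0.95) and ERBB3 when NS number 4 or IL-1β number 2 or 3 was left out (log2 change −1.24 to −1.01). NOTCH1 changed by −1.21 ± 0.18 and its target HES1 by −1.09 ± 0.19, the 2 genes called of 15 in the Notch list. The water and glycerol channel AQP3 fell from 25.3 to 42.0 TPM to 5.45 to 11.7 TPM (change −1.83 ± 0.28) and the sodium channel chain SCNN1A changed by −1.04 ± 0.25 but lost its call when NS number 2 or 3 or IL-1β number 1 or 2 was left out (log2 change −0.97 to −0.88). Of 18 alveolar type II genes 12 were tested, with a median change of −0.08. SFTPA1, SFTPA2, SFTPB, NKX2-1, SLC34A2 and HOPX did not reach the minimum level. LAMP3, a marker of lamellar bodies, was the 1 called, from 0.0625 to 0.225 TPM to 2.47 to 4.96 TPM (change 2.63 ± 0.15). LAMP3 changed by 0.55 at 2 h, 3.03 at 6 h and 1.55 at 24 h.

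Genes of DNA replication were lower with IL-1β, and those of mitosis were not called at 12 h. Of 32 S phase genes 11 fell and 0 rose, and the median change was −0.86 against −0.05 over all genes. CDT1, which licenses replication origins, read 16.4, 14.9, 15.7 and 19.1 TPM in NS and 8.14, 6.37, 4.26 and 3.47 TPM with IL-1β, a change of −1.55 ± 0.18. All IL-1β libraries lay below NS. The transcription factor E2F1 read 15.7, 17.9, 17.0 and 16.8 TPM in NS and 7.77, 7.98, 5.97 and 4.26 TPM with IL-1β (change −1.35 ± 0.12), E2F2 changed by −1.40 ± 0.14 and the helicase subunit MCM2 by −1.26 ± 0.14. The remaining members mostly lay between −0.5 and −1 without a call, PCNA at −0.56 among them. The count depended on single libraries: 7 of 32 fell without IL-1β number 3 or number 4. By library the mean change of the list was −0.66, −0.75, −1.03 and −1.22 for IL-1β numbers 1 to 4. Of 33 mitosis genes 0 were called, with a median of −0.47, and MKI67 and CDK1 changed by −0.67 and −0.66. CDKN2C, an inhibitor of CDK4 and CDK6, was the only called gene of 14 CDK inhibitors and D-type cyclins (−1.64 ± 0.11), and 2 were called without IL-1β number 1 or NS number 2. Promoter stretches are shown for 3 of the lowest S phase genes because the E2F word, TTTCCCGC or TTTGGCGC on either strand, stands in them: CDT1 (chr16:88803730-88803785, plus strand), E2F2 (chr1:23531244-23531299, minus strand) and E2F1 (chr20:33686386-33686429, minus strand). Capitals mark the match.
CDT1: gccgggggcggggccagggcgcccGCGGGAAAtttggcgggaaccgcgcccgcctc
E2F2: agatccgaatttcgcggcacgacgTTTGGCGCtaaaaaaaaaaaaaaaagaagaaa
E2F1: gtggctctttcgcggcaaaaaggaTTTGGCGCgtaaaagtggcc

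The word lies 28, 35 and 13 bases before the start in CDT1, E2F2 and E2F1. It was found in 17 of 27 S phase windows (63.0%) and in 2 of 27 mitosis windows (7.41%). Among genes called down 5.98% held it, against 1.65% of those called up, 3.67% of those not called and 2.31% of all windows.

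**Figure D4:**
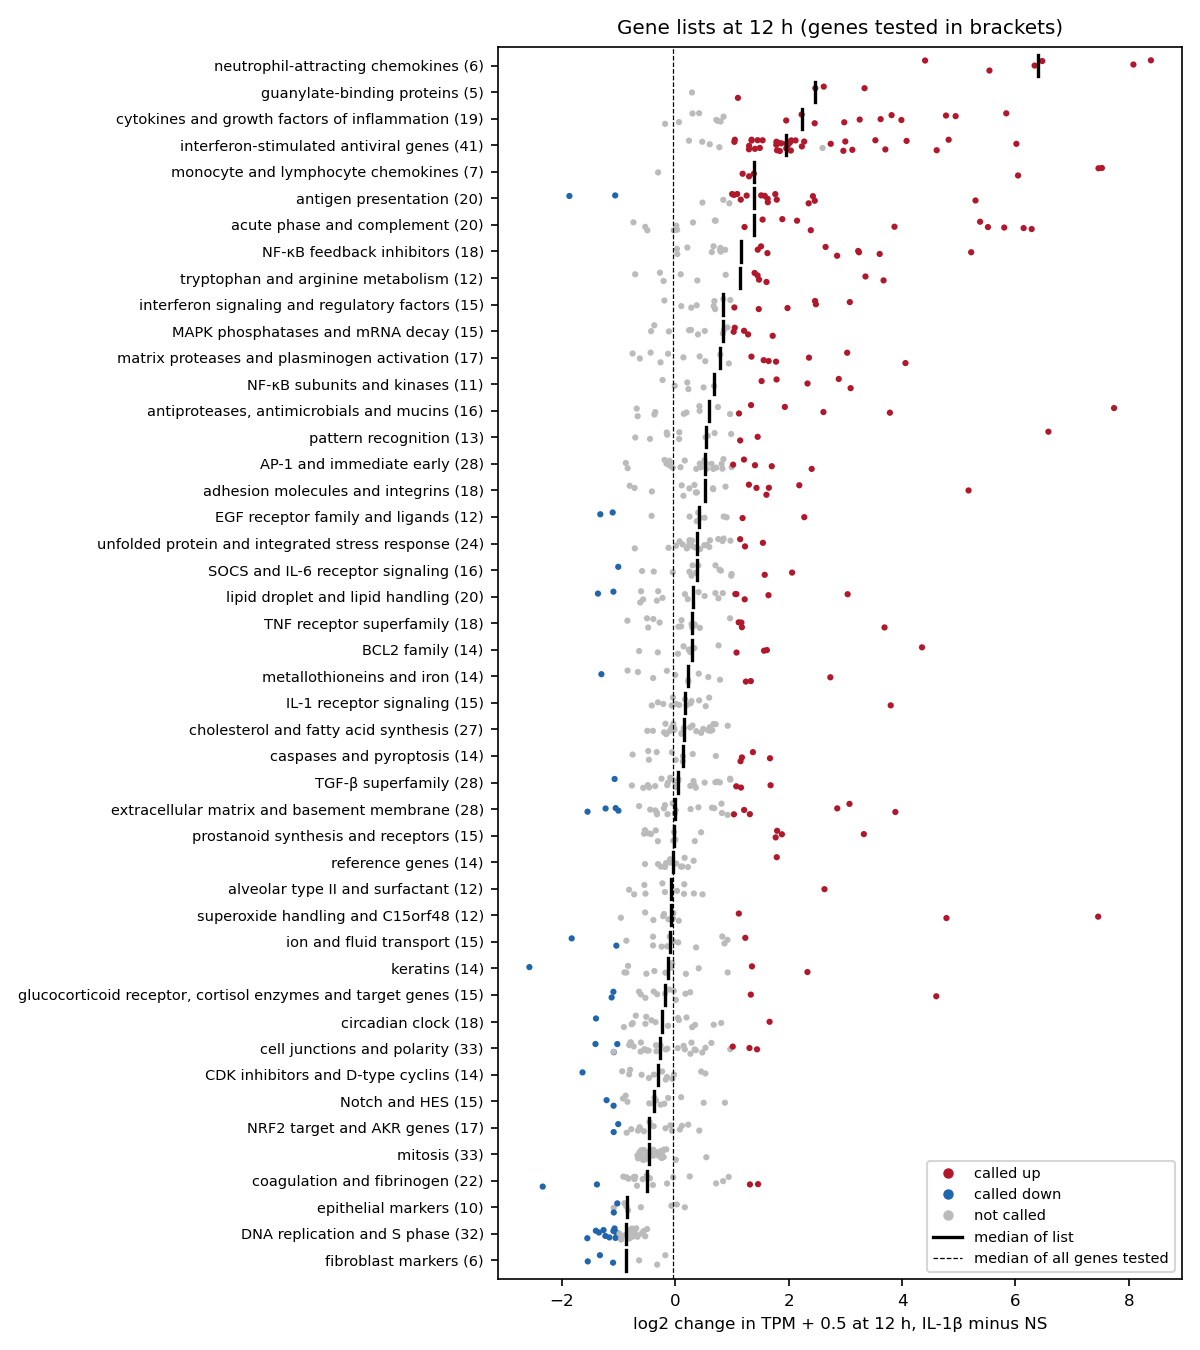
Changes of the tested members of gene lists at 12 h in log2(TPM + 0.5), IL-1β minus NS, 1 point a gene (red called up, blue called down, grey not called), with the list median as a bar and the median of all genes as a dashed line. The neutrophil chemokines have a median of 6.41 and the S phase genes one of −0.86.

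Metabolic and stress lists moved less. Of 27 genes of cholesterol and fatty acid synthesis 0 were called in either direction by limma, and 1 was called up without IL-1β number 2. Lipid handling genes rose in 5 of 20 cases and fell in 2. APOL1, a lytic apolipoprotein that interferon also induces, read 1.59, 0.979, 1.04 and 1.40 TPM in NS and 10.2, 8.85, 15.0 and 26.5 TPM with IL-1β (change 3.04 ± 0.24, 13.9% of words shared), APOL6 changed by 1.23 ± 0.16, the lipase LIPG by 1.64 ± 0.25 and APOH by −1.36 ± 0.27. Without IL-1β number 4, 3 genes of this list rose. CIDEC, a lipid droplet protein, changed by −1.09 ± 0.37 and lost its call when NS number 4 or IL-1β number 1 or 2 was left out (log2 change −0.98 to −0.80). Stress response genes rose in 3 of 24 cases, the chaperone DNAJB9 (1.55 ± 0.19), the sensor ERN1 (1.15 ± 0.23) and the synthetase ASNS (1.23 ± 0.17, 48.4% of words shared). Zinc and iron genes included SLC39A8, an importer of zinc (2.74 ± 0.20), the metallothionein MT2A (1.33 ± 0.29, 12.7% of words shared), the iron importer SLC11A2 (1.25 ± 0.16) and the iron exporter SLC40A1 (−1.30 ± 0.37), so 3 of 14 rose and 1 fell. In the TGF-β family BMP2 (1.68 ± 0.14) and the receptor TGFBR1 (1.16 ± 0.26) rose. FST (1.08 ± 0.37), which binds activins, lost its call when NS number 1 or 2 or IL-1β number 3 or 4 was left out (log2 change 0.87 to 0.96), and the activin chain INHBB (−1.07 ± 0.10) when IL-1β number 4 was left out (log2 change −0.98). The count that rose in this list was 3 of 28, and 5 without IL-1β number 2 or NS number 4. The 13 mitochondrially encoded genes gave 0 calls and a median of −0.03.

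Most genes called up at 12 h were also called up at 6 h or 24 h, when 5.21% and 3.76% of all genes were called up and 4.81% and 4.31% down. Each time had its own NS libraries, so these counts come from separate sets. Of the 486 genes called up at 12 h, 396 were called up at 6 h (81.5% of the 12 h genes and 57.0% of the 6 h genes) and 373 at 24 h (76.7% and 74.5%). At 2 h the number was 197 (40.5% and 52.4%) and at 1 h 74 (15.2% and 54.4%). Of the 410 called down, 213 were called down at 6 h (52.0% and 33.2%) and 251 at 24 h (61.2% and 43.7%), but 13 at 2 h and 0 at 1 h, when 0.503% and 0.0075% of all genes were called down. A call at 12 h and at no other time was given to 20 genes up and 76 down, but 0 genes called at 12 h had a change that was higher, or lower, than both that at 6 h and that at 24 h by the tests of the difference in limma. At all 5 times 61 genes were called up. For 0 genes was the call at another time in the opposite direction. NS itself was steady: 0 genes were called by limma between NS at 12 h and NS at 6 h or 24 h, although 794 and 961 had an unadjusted p under 0.05, and 14 and 26 had an adjusted p within the limit.

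The change at 12 h was then tested against the change at 6 h, where NS had 3 libraries. It was higher for 125 genes (0.938% of all tested) and lower for 166 (1.25%). Of the lower ones 138 had been called up at 6 h and 52 were still called up at 12 h. Of the higher ones 79 had been called down at 6 h and 13 were called up at 12 h. Of the 41 interferon-stimulated genes 19 were lower at 12 h than at 6 h and 0 higher (15 to 21 lower when 1 library of the groups compared was left out), while 39 were called up at 6 h and 36 at 12 h. CMPK2, a mitochondrial nucleotide kinase induced by interferon, changed by 4.68 at 6 h and 1.98 at 12 h, a difference of −2.70 ± 0.48 (adjusted p = 3.40e-05). HELZ2, a helicase coactivator, went from 4.08 to 1.89 and GBP4 from 3.74 to 1.11. Of 5 guanylate-binding proteins 4 were lower at 12 h. The costimulatory ligand ICOSLG went from 3.16 to 0.82 (difference −2.34 ± 0.22, 22.2% of words shared), the receptor chain IL15RA from 3.18 to 0.99, the oxysterol hydroxylase CYP7B1 from 3.16 to 0.74 and PLEKHA4 from 3.13 to 0.60. None of these 4 was called at 12 h with all libraries. ICOSLG was called when IL-1β number 2 was left out (log2 change 1.02) and IL15RA when NS number 1 or 4 or IL-1β number 1 or 3 was left out (log2 change 1.03 to 1.17). CXCL10 belonged to the 8 lowest as well.

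Several of the genes higher at 12 h than at 6 h had been called down at 6 h. TRIM9, a ubiquitin ligase, changed by −2.01 at 6 h and 0.16 at 12 h (difference 2.17 ± 0.31, adjusted p = 2.76e-07). LBH went from −2.57 to −0.64, the transcription factor ETV1 from −2.49 to −0.78 and the nuclease family gene EEPD1 from −2.20 to −0.47. FBXL16 went from −2.95 to 0.15 (adjusted p = 0.0458) and lost its call without 11 of the 15 libraries compared, when each was left out in turn (differences 2.43 to 3.32). PDZK1IP1, a small membrane protein of epithelium, rose on through all times, at 1.61 at 6 h, 3.39 at 12 h and 4.76 at 24 h, and both steps passed the test (adjusted p = 2.08e-07 and 4.55e-05). IGFBP1, which binds insulin-like growth factors, went from 1.49 at 6 h to 3.67 at 12 h. ANGPTL4, an inhibitor of lipoprotein lipase, changed by −0.74 at 6 h, 1.08 at 12 h and 0.13 at 24 h, and its 12 h call was lost when NS number 4 or IL-1β number 2 or 4 was left out (log2 change 0.95 to 0.96).

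Against 24 h the change at 12 h was higher for 121 genes (0.908% of all tested) and lower for 43 (0.323%). Of 33 mitosis genes 26 were higher at 12 h than at 24 h and 0 lower, 31 were called down at 24 h (4.31% of all genes) and 0 at 12 h, and the list median was −1.71 at 24 h. UBE2C, the ubiquitin-conjugating enzyme of the anaphase-promoting complex, read 85.7, 98.0, 83.4 and 84.7 TPM in NS and 80.2, 85.0, 70.6 and 69.8 TPM with IL-1β at 12 h. It changed by −0.20 at 12 h and −1.89 at 24 h, a difference of 1.69 ± 0.19 (adjusted p = 2.37e-09). DEPDC1 went from −0.35 to −2.04, and PRR11 from −0.62 to −2.44. DEPDC1 and PRR11 share 18.9% and 14.3% of their words with other genes. The PRR11 difference (1.82 ± 0.54) lost its call without 7 of the 16 libraries compared, when each was left out in turn (differences 1.44 to 1.83). By library, the mean change of the mitosis list was −0.21, −0.28, −0.54 and −0.56 at 12 h and −1.31, −1.48, −1.96 and −1.64 at 24 h for numbers 1 to 4, and the 2 ranges did not overlap. S phase genes, by contrast, gave 1 higher of 32, with 25 called down at 24 h.

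Of interferon-stimulated genes MX1 changed by 4.08 at 12 h and 1.85 at 24 h (difference 2.23 ± 0.40, adjusted p = 7.96e-05) and OAS2, which makes the activator of RNase L, by 3.53 and 1.52 (difference 2.01 ± 0.34). Of the 41 interferon-stimulated genes 10 were higher at 12 h, a count that depended on single libraries. It was 4 without IL-1β number 4 at 12 h and 22 without IL-1β number 4 at 24 h. Without IL-1β number 1 or number 2 at 12 h it was 17. In the matrix list TNC was the 1 gene of 28 called between these times. It changed by 3.07 and 0.97, the ion channel family gene ANO9 by 1.77 and 0.02, and NT5DC4 by 0.66 and −4.12. Lower at 12 h than at 24 h were the deacetylase HDAC5 (−0.96 and 0.70), the prolactin-induced protein PIP (1.52 and 3.00), the F-box protein FBXO2 (0.10 and 1.37), REEP6, which shapes the endoplasmic reticulum (−1.15 and 0.10), and LRMDA (0.32 and 1.87). ARMH1 (−1.28 and 0.16) and SNORC (−0.40 and 0.98) were lower too. HDAC5 was called at 12 h when NS number 3 or IL-1β number 3 was left out (log2 change −1.06 to −1.02). The ARMH1 difference lost its call without 3 of the 16 libraries and that of SNORC without 8, when each was left out in turn (differences −1.33 to −1.21 and −1.37 to −1.16).

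**Figure D5:**
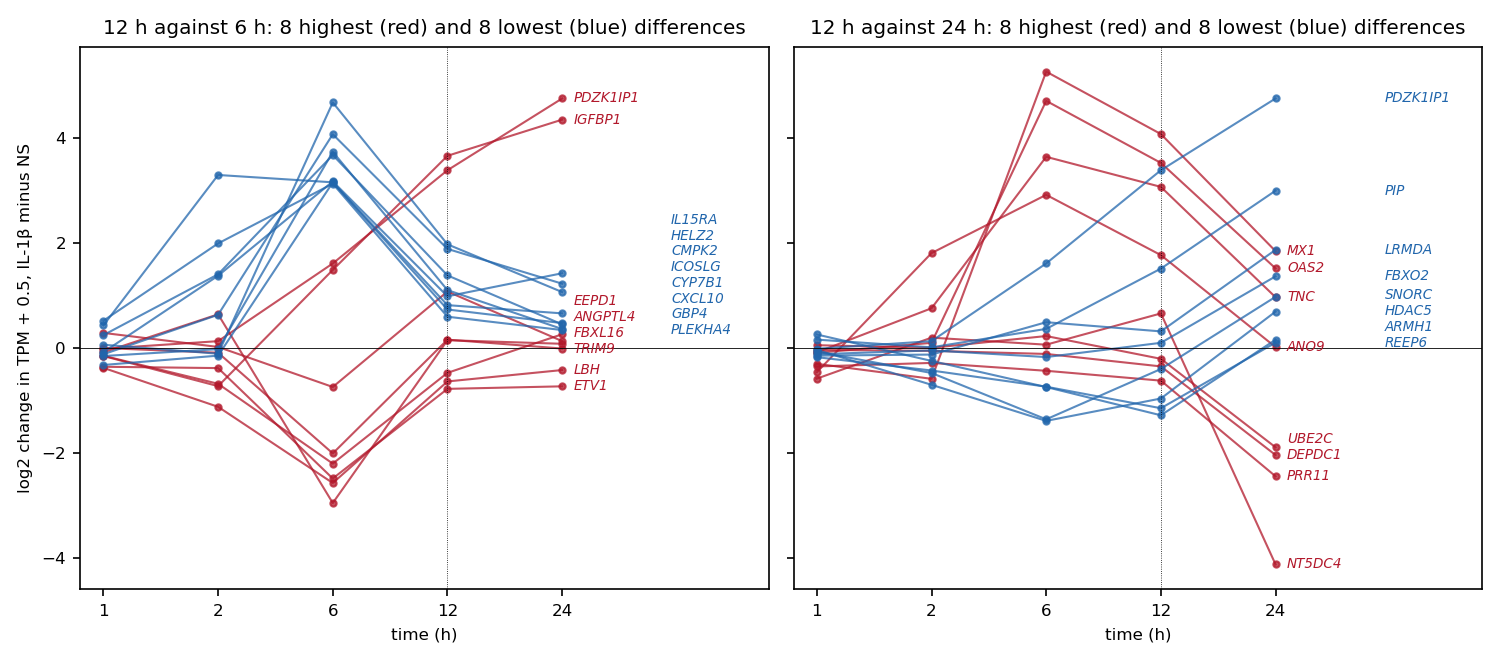
Changes in log2(TPM + 0.5), IL-1β minus NS, at 1, 2, 6, 12 and 24 h (spaced evenly) for the 8 highest (red) and 8 lowest (blue) differences of 12 h from 6 h on the left and from 24 h on the right. The blue genes on the left drop between 6 h and 12 h, as CMPK2 from 4.68 to 1.98, and the red genes on the right drop between 12 h and 24 h, as MX1 from 4.08 to 1.85.

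The limit of change divides genes with almost equal values. Just inside it among rises lay TAPBPL, MB21D2, CCBE1, DRD1, PTPRH and SAA2-SAA4 at 1.004 to 1.009, and just outside TPBG, RNF19B, ELOVL3, FOSL2, PRDM1 and IL4R at 0.9944 to 0.9992. Among falls HBQ1, LOXL4, GSTA4, FXYD6, NEIL3 and IL11RA lay just inside at −1.005 to −1.002, and MEIOC, RHOBTB1, RADIL, CYP2U1, HSPA1B and SUGCT just outside at −0.9996 to −0.9919.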

How the data were processed

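Poly(A) RNA was sequenced by the authors from A549 cells as stranded libraries. Per the labels the reads were quantified with kallisto and normalized with sleuth on the build GRCh38 (hg38). The deposited table holds normalized TPM per gene and library, whose sums differ between libraries (812680 to 1009500), so the deposited values were treated as a normalized signal. Per the study's methods all libraries were sequenced to about the same read number, but the depth of each library cannot be read from these values and no counting interval is given. The deposited comparison table holds the authors' fold changes and adjusted p-values and was not used. The values of 1 library not listed in the labels used here (NS at 6 h) were not analysed.

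Groups and numbers came from the titles. The 13327 of 19652 genes that reached 1 TPM in 3 libraries or more were analysed as log2(TPM + 0.5), which understates changes of low genes. A linear model with 1 mean for each of 20 groups was fitted to 78 libraries in limma 3.58.1 under R 4.3.3 (58 residual degrees of freedom, moderation with a trend). All tests were two-sided, and Benjamini-Hochberg adjustment ran over the 13327 genes of a contrast. Contrasts were IL-1β minus NS at each time, and the 12 h change minus the 6 h or 24 h change. A gene was called at an adjusted p of at most 0.05 and an absolute log2 change of at least 1. p-values measure the spread between these libraries. Deviations from the group means at 12 h correlated for every same-numbered pair (r = 0.251, 0.521, 0.268 and 0.415 for numbers 1 to 4). The main fit did not use this pairing, so the changes, SEs and p-values given are unpaired. Pairing by number entered only as the replicate block among the alternatives.

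The comparison, gene lists and named genes were chosen with earlier results of these data known. Named were, among called genes with a mean of 2 TPM or more and groups that did not overlap, the 15 highest and 12 lowest, the 4 largest called changes of each list, and the 8 highest and 8 lowest differences from each other time. Other named genes were added for the text with their values known. On simulated data for the 12 h comparison with 13327 genes the fit called 49 of 50 genes given a 3-fold change, all 50 at 4-fold and all 50 at 8-fold, 0 of 50 at 1.5-fold (under the limit), and 3 genes given no change. In the simulation the changed genes were drawn only from those above a minimum level in NS, and the noise was independent between libraries. Its counts therefore do not cover low genes or deviations that libraries of the same number share. Shared sequence words are 31-base words of a gene's transcripts in the reference that also occur in another gene's. Promoter windows came from RefSeq (GRCh38.p14) and matched 10576 of the genes tested, by symbol, with the first start listed. Windows were not used here for PI3, CCL5, C15orf48, SAA1, CCL2 and CSF3. Alternatives were pseudocounts of 0.1 and 1, no filter, a mean of 5 TPM, other scalings, fewer libraries, a replicate block and each library left out. Some results that the naming rule would give are not reported here.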

Additional observations from a re-analysis of the deposited data

Results flagged for a closer look

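Within the groups of 4 libraries at 12 h, 36 of 398 values tested stood apart from the other 3, with a gap to the nearest above 0.829 of the whole range (Dixon's criterion), where chance flags about 1 group in 20. No cause of these values was tested. The range of the other 3 libraries follows each value in parentheses. SLC15A3 at 0.106 TPM (0 to 0.0181) was high in NS number 1. UBD at 0.154 TPM (all at or near 0) and UBE2C at 98.0 TPM (83.4 to 85.7) were high in NS number 2. IL6 at 0.111 TPM (all at 0), IRF9 at 19.2 TPM (14.0 to 14.3), GBP4 at 0.338 TPM (0.0714 to 0.0830) and MMP1 at 0.0444 TPM (0.0214 to 0.0227) were high in NS number 3. TNFRSF10A at 15.1 TPM (10.9 to 11.3), APOH at 37.6 TPM (27.3 to 28.6), FST at 7.14 TPM (2.74 to 3.21) and SLC6A14 at 0.241 TPM (0.0353 to 0.0634) were high in NS number 3. NFKB2 at 12.2 TPM (16.1 to 16.9) and LRMDA at 12.6 TPM (17.0 to 17.5) were low in NS number 3. VIL1 at 17.2 TPM (3.00 to 4.74), PLA2G4C at 5.35 TPM (2.95 to 3.14), ERBB3 at 34.8 TPM (13.2 to 15.9) and LAMB3 at 14.6 TPM (6.65 to 7.83) were high in NS number 4. HSD11B1 at 0.0675 TPM (all at 0) and CIDEC at 8.85 TPM (3.42 to 3.88) were high in NS number 4. ITGAM at 4.85 TPM (2.18 to 2.55) was high in IL-1β number 1. C15orf48 at 1009 TPM (748 to 786) was high in IL-1β number 2. ITGA2 at 24.2 TPM (33.2 to 33.8) and DBP at 0.448 TPM (0.939 to 0.945) were low in IL-1β number 2. CXCL10 at 3.19 TPM (0.313 to 0.520), GBP1 at 14.8 TPM (5.32 to 6.23), GBP4 at 2.03 TPM (0.562 to 0.662) and MCL1 at 117 TPM (92.4 to 95.3) were high in IL-1β number 4. KRT6A at 20.6 TPM (1.36 to 3.94), SLC15A3 at 4.20 TPM (1.42 to 1.86), TRIM9 at 7.02 TPM (5.57 to 5.76) and CMPK2 at 11.5 TPM (0.891 to 2.42) were high in IL-1β number 4. PLEKHA4 at 2.02 TPM (0.881 to 1.01) and HELZ2 at 32.5 TPM (8.68 to 12.6) were high in IL-1β number 4. ALDH3A1 at 364 TPM (417 to 426) and DUSP5 at 31.6 TPM (39.4 to 40.8) were low in IL-1β number 4. In NS number 3 the 10 highest genes took 16.9% of the summed TPM, against 15.6% to 15.8% in the other 3.

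The IL-1β change at 12 h differed from that at another time by a test of the difference itself (limma, adjusted over 13327 genes) for the named genes given here, on the log2(TPM + 0.5) scale. The change was higher at 12 h than at 6 h for FBXL16 (3.10), IGFBP1 (2.18), TRIM9 (2.17), LBH (1.94), ANGPTL4 (1.82), PDZK1IP1 (1.78), EEPD1 (1.73) and ETV1 (1.71). The change was lower at 12 h than at 6 h for CXCL10 (−2.29), GBP4 (−2.64), CMPK2 (−2.70), PLEKHA4 (−2.54), CYP7B1 (−2.42), ICOSLG (−2.34), IL15RA (−2.19) and HELZ2 (−2.19). The change was higher at 12 h than at 24 h for MX1 (2.23), TNC (2.10), NT5DC4 (4.79), OAS2 (2.01), PRR11 (1.82), ANO9 (1.75), DEPDC1 (1.69) and UBE2C (1.69). The change was lower at 12 h than at 24 h for PDZK1IP1 (−1.37), HDAC5 (−1.66), LRMDA (−1.56), PIP (−1.49), ARMH1 (−1.44), SNORC (−1.38), FBXO2 (−1.27) and REEP6 (−1.25). All of these differences use the same 12 h libraries. The limits that single libraries set for FBXL16, PRR11, SNORC and ARMH1 are given with the comparison of times.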

How the results depend on the processing

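A minimum mean of 5 TPM over the libraries lowered 5 of 6 counts by more than 1.5 times, to 290 genes up and 220 down at 12 h, 68 higher and 85 lower than at 6 h, and 16 lower than at 24 h, with 9548 genes tested instead of 13327. It left 97 higher than at 24 h, against 121. Each of the 290 and 220 genes was also called over all genes. A pseudocount of 1 gave 269 genes down at 12 h and 23 lower than at 24 h, and a pseudocount of 0.1 gave 669 down at 12 h; against 410 and 43 with 0.5. Fitting only the libraries of the groups compared gave 22 genes lower than at 24 h, and the cause was not tested. With 1 library left out at a time, the counts ran from 467 to 528 up and 381 to 439 down at 12 h, from 107 to 140 higher and 147 to 191 lower than at 6 h, and from 102 to 152 higher and 33 to 61 lower than at 24 h. With the replicate block 489 genes were up and 414 down at 12 h, 140 were higher and 190 lower than at 6 h, and 130 were higher and 59 lower than at 24 h; the replicate block changed no call of a named gene at 12 h and moved none of these counts by over 1.5 times. Median-of-ratios scaling (515 up, 368 down), quantile normalization (508 up, 328 down), no filter (485 up, 407 down) and no trend (486 up, 410 down) stayed within 1.5 times of the counts at 12 h. Leaving out both number 2 libraries, an alternative chosen after seeing the data, gave 502 up and 438 down. Of 177 named genes called at 12 h, 26 lost the call under at least 1 of 19 alternatives, 20 of them when 1 library was left out, 3 further named genes gained it and 0 changed direction. The depth of each library cannot be read from these values, and its limits show here only as the weight of low values under the pseudocounts.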

Other observations

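Gene families taken whole by their symbols are given beside all genes tested, of which 3.65% were called up and 3.08% down. Of 246 solute carriers tested 13 rose and 9 fell at 12 h, with a median change of −0.06. SLC6A14, a carrier of amino acids, rose (0.0353 to 0.241 TPM without and 2.36 to 10.2 TPM with IL-1β, change 3.45 ± 0.34), SLC39A8 from 13.5 to 18.6 TPM to 74.8 to 148 TPM (change 2.74 ± 0.20), the lysosomal carrier SLC15A3 from 0 to 0.106 TPM to 1.42 to 4.20 TPM (change 2.31 ± 0.22) and the glucose transporter family gene SLC2A6 from 9.82 to 13.9 TPM to 36.0 to 53.4 TPM (change 1.86 ± 0.14). Of 397 ZNF zinc finger genes 1 rose and 3 fell (median −0.08), and 5 fell without NS number 2. The 4 called were ZNF467 (−1.69 ± 0.16), ZNF641 (1.45 ± 0.27), ZNF367 (−1.43 ± 0.14) and ZNF488 (−1.16 ± 0.20), of which ZNF488 lost its call when IL-1β number 3 was left out (log2 change −0.99).

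In the circadian clock list 1 of 18 rose and 1 fell, where 3.65% of all genes tested were called up and 3.08% down. The list median was −0.24. The clock repressor BHLHE41 read 0, 0.0537, 0.272 and 0.356 TPM in NS and 1.57, 1.57, 1.97 and 1.24 TPM with IL-1β (change 1.66 ± 0.29). The clock output factor DBP read 2.28, 3.91, 3.82 and 2.09 TPM in NS and 0.945, 0.448, 0.939 and 0.945 TPM with IL-1β (change −1.40 ± 0.25). A second gene of this list fell without IL-1β number 3. PER1, PER2 and PER3 changed by −0.53, −0.70 and −0.77 and did not pass.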
